A study of Rattus norvegicus with 11 samples.

Results

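A set of 7 genes of neutrophils were followed by symbol through the striatal transcriptomes of 11 rats: S100a8, S100a9, Lcn2, Mmp8 and Camp, which encode granule or cytosolic proteins, and Csf3r and Fpr1, which encode surface receptors. They are 7 of the 30560 genes in the table, and 5 of them passed the filter on low counts that left 15742 genes for testing. The other two, Camp and Fpr1, summed to 43 counts and 1 count over all rats. S100a8, S100a9, Lcn2 and Mmp8 passed because their counts were high in the rats with hemorrhage, so the number that passed supports nothing about how the members behaved. Csf3r had 70 and 64 counts in the Normal rats as well.

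All rats were adult male Sprague-Dawley animals and all tissue was taken on day 3. The IC rats (n = 3) had a common intracerebral hemorrhage made with 0.2 U of the bacterial enzyme collagenase VII-S in 1.0 μL of saline, injected in the right striatum. The IS rats (n = 3) had a severe hemorrhage made with 0.6 U in 3.0 μL, so that dose and volume changed together. The IS-HA rats (n = 3) received the severe hemorrhage and, 6 h later, a second anesthesia, a catheter and aspiration of 150 μL from the hematoma. The Normal rats (n = 2) received neither collagenase nor aspiration, and saline alone was not injected in any group analysed here, so the hemorrhage and the injection cannot be told apart. Each library was a piece of striatum from the injected side, or the matching region of a Normal rat. Total counts ran from 6701301 in IS-HA replicate 2 to 18817645 in IC replicate 3.

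Neutrophils are short-lived granulocytes that leave the blood early after tissue injury. They carry proteins ready-made in granules, and much of the transcription that fills those granules takes place in the bone marrow, so a mature neutrophil in tissue may hold little messenger RNA for some of its most abundant proteins. S100A8 and S100A9 pair to form calprotectin, a calcium-binding protein of the cytosol that sequesters zinc and manganese and acts as an alarm signal once released. Lipocalin-2, the product of Lcn2, captures bacterial iron carriers. Mmp8 encodes neutrophil collagenase, and Camp the antimicrobial cathelicidin. Csf3r encodes the receptor for granulocyte colony-stimulating factor, and Fpr1 a receptor for formylated peptides of bacteria and mitochondria. None of the genes is exclusive to neutrophils: Lcn2 is a known product of reactive astrocytes, and monocytes express S100a8, S100a9 and Csf3r.

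The bases in front of 3 members are shown because these genes stood apart from each other in the comparison of IS with IC described further on, S100a9 on one side and Lcn2 and Mmp8 on the other. They are RefSeq sequences of the GRCr8 assembly, a later build than the mRatBN7.2 genome that the submitters' processing notes name for the counts, and each ends directly before the annotated gene start. The S100a9 sequence is chr2:178490623-178490872 on the minus strand, the Lcn2 sequence chr3:36081852-36082030 on the minus strand, and the Mmp8 sequence chr8:13008640-13008872 on the plus strand. Capitals mark matches, on either strand, to 5 short motifs: TTGCNNAA for C/EBP factors, GAGGAA for PU.1, TTCNNNGAA for STAT factors, TGANTCA for AP-1 and TATAAA for the TATA box.
S100a9: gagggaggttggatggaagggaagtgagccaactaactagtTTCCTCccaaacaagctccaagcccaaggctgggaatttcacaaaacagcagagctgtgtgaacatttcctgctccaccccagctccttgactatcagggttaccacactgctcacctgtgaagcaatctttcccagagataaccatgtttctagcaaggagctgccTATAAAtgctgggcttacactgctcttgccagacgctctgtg
Lcn2: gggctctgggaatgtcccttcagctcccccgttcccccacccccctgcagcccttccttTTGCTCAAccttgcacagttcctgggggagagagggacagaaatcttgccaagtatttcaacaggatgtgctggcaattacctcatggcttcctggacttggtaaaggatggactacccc
Mmp8: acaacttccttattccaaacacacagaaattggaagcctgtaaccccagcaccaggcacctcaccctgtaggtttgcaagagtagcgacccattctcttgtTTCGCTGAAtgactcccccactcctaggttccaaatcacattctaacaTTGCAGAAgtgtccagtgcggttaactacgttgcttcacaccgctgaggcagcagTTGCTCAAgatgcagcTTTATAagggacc

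The S100a9 sequence held 1 PU.1 match and 1 TATA match. The Lcn2 sequence held 1 C/EBP match. The Mmp8 sequence held 2 C/EBP matches, 1 STAT match and 1 TATA match. Of 33469 rat promoter windows, 9.22% held the C/EBP letters, 23.3% the PU.1 letters, 7.67% the STAT letters, 6.34% the AP-1 letters and 12.9% the TATA letters. A match describes the letters of the window and is not evidence that a factor binds there. The sequences of Csf3r and Camp were searched in the same way, with 1 PU.1 match in Csf3r and 0 matches of any motif in Camp. S100a8 had no entry in the sequence table used. S100a8 and S100a9 lie next to each other on one chromosome, with 0 annotated genes between them.

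The first question was how far the members rose after hemorrhage of either severity. TPM (as deposited) is a transcript level scaled for gene length and for the size of the library. Values are given in the order of the replicate numbers, which are 1 and 3 for Normal, 2, 3 and 4 for IC and IS, and 1, 2 and 3 for IS-HA. S100a8, at 0.729 and 1.12 TPM in the Normal rats, was at 28.4, 122 and 61.4 TPM in IC, 347, 214 and 207 TPM in IS, and 66.9, 542 and 91.9 TPM in IS-HA. S100a9 was at 1.35 and 0.985 TPM in Normal, 27.3, 93.5 and 70.0 TPM in IC, 293, 239 and 233 TPM in IS, and 63.9, 277 and 87.6 TPM in IS-HA. For both genes every rat with hemorrhage lay above both Normal rats, as held for 32.4% of all tested genes in IC, 37.6% in IS and 31.7% in IS-HA. The 3 IS rats lay above the 3 IC rats, and the IS-HA rats were spread from the IC range to the IS range, with 1 rat above it for S100a8.

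Lcn2 behaved otherwise. It was at 1.38 and 1.88 TPM in Normal, 187, 386 and 274 TPM in IC, 192, 378 and 257 TPM in IS, and 361, 255 and 336 TPM in IS-HA. The ranges of the 3 hemorrhage groups overlapped almost completely, with group means of 282 ± 99.7, 276 ± 94.7 and 317 ± 55.5 TPM (SD, n = 3 each) for IC, IS and IS-HA. In IC it was the most abundant of the 7 transcripts in every rat, whereas in IS replicate 2 and in IS-HA replicate 2 both S100a8 and S100a9 exceeded it.

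Mmp8 was at 0.0638 and 0 TPM in Normal, 4.29, 12.9 and 11.9 TPM in IC, 6.77, 7.30 and 12.9 TPM in IS, and 9.23, 6.60 and 2.86 TPM in IS-HA. Csf3r was at 2.94 and 2.75 TPM in Normal, 22.6, 36.8 and 26.5 TPM in IC, 43.8, 30.5 and 62.1 TPM in IS, and 26.2, 31.0 and 31.1 TPM in IS-HA. Both were far above Normal in every rat with hemorrhage, and their ranges overlapped between the hemorrhage groups. By group mean in TPM the order in IC was Lcn2, S100a8, S100a9, Csf3r and Mmp8, and S100a8 and S100a9, at 70.6 ± 47.4 and 63.6 ± 33.6 TPM (SD, n = 3), did not differ beyond their spread. In IS the means of Lcn2, S100a8 and S100a9 were 276 ± 94.7, 256 ± 78.8 and 255 ± 33.1 TPM (SD, n = 3), which likewise did not differ beyond their spread.

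**Figure D1:**
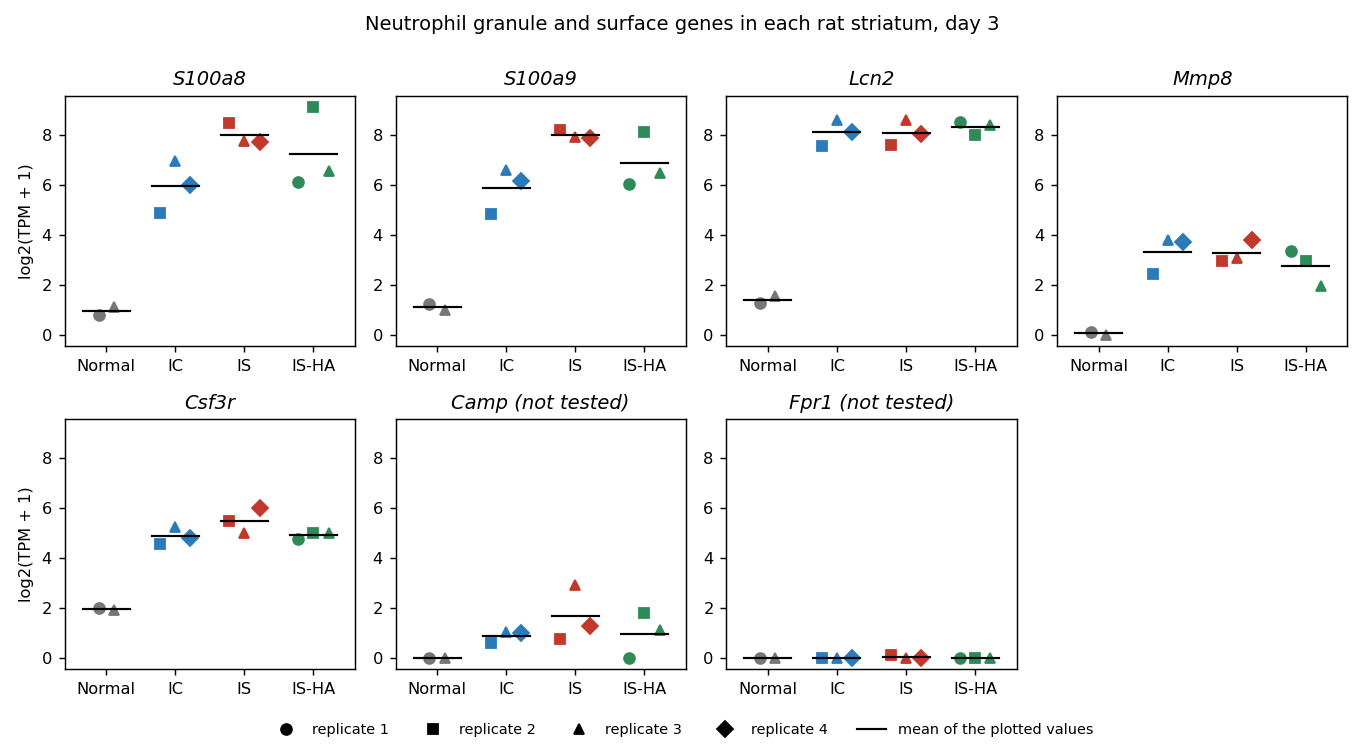
Level of each member gene as log2(TPM + 1), one point per rat with the marker giving the replicate number and a line at the mean of the plotted values. S100a8 and S100a9 are higher in all 3 IS rats than in all 3 IC rats, Lcn2 and Mmp8 lie in the same range in the hemorrhage groups, Camp rests on at most 20 counts in a rat, and Fpr1 stays near 0.

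The 5 tested members were higher than in Normal in each of the 3 hemorrhage groups (edgeR quasi-likelihood test, Benjamini-Hochberg adjusted p under 0.05 and at least 1 on the log2 scale). Among all 15742 tested genes 10.9% were called higher in IC, 18.8% in IS and 15.1% in IS-HA. The 2 Normal rats are shared by the 3 comparisons, so these are not independent of each other. Mmp8 rose by 7.78 on the log2 scale in IC (SE 1.09, adjusted p = 8.2e-04), but the Normal rats held 1 count of it between them. The ratio of summed CPM, which are counts scaled for the size of the library, was 322 in IC (95% exact interval 57.4 to 12731), 293 in IS (52.1 to 11613.5) and 219 in IS-HA (38.9 to 8697), intervals that cover counting error only. Lcn2 rose by 7.37 in IC (SE 0.49, adjusted p = 4.5e-05), by 7.42 in IS and by 7.57 in IS-HA. Csf3r, which was present in Normal striatum, rose least, by 3.27 (SE 0.38, adjusted p = 2.9e-04), 4.02 and 3.37.

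The rise of S100a8 was 6.11 on the log2 scale in IC (SE 1.42, adjusted p = 0.0142), 8.03 in IS and 8.04 in IS-HA, where it was 6.20 without IS-HA replicate 2. The rise of S100a9 was 5.67 in IC (SE 0.99, adjusted p = 0.00292), 7.74 in IS and 6.99 in IS-HA, where it was 5.84 without that rat, and both genes were then still called (adjusted p = 4.74e-04 and 1.69e-04 in edgeR). Leaving out a Normal rat leaves 1 in that group, which the fit then assumes to vary like the other groups. The rise of S100a8 in IC was 5.90 without Normal replicate 1 and 6.36 without Normal replicate 3, about as large as before, but the adjusted p became 0.096 and 0.132, within a range of 5.56e-06 to 0.132 over all alternatives. Without Normal replicate 3 the rise of S100a9 was 5.41 and its adjusted p 0.0523 (range 1.71e-11 to 0.0523), which left 3 of the 5 members called. In whole tissue, more neutrophils and more RNA per cell cannot be told apart.

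Camp and Fpr1 gave too few reads for a test. Camp had 0 counts in both Normal rats, 2, 5 and 3 counts in IC, 2, 20 and 3 counts in IS, and 0, 5 and 3 counts in IS-HA. Against the level that 3 counts over the Normal group would give, the summed CPM of Camp was 2.69-fold in IC, 10.2-fold in IS and 3.00-fold in IS-HA. These ratios rest on 10, 25 and 8 counts and cover neither their counting error nor the spread between rats. Of the 25 IS counts, 20 came from 1 rat. Fpr1 had 1 count in IS replicate 2 and 0 counts in the other rats, which is at or under the limit of 3 counts in every group. The 6 Fpr genes in the table, which are similar in sequence and may share reads, held 11 counts in all, and 3 of them were at 0 in every rat.

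The second comparison, IS with IC, asked whether the members followed the severity of the hemorrhage. S100a9 was 2.06 higher in IS on the log2 scale (SE 0.60, unadjusted p = 0.00562, adjusted p = 0.15 in edgeR) and S100a8 was 1.92 higher (SE 0.79, unadjusted p = 0.0332, adjusted p = 0.199). Neither difference passed the adjusted threshold. With edgeR 0 of the 5 members and 0% of all tested genes were called, whereas at an unadjusted p under 0.05 with the same fold cutoff S100a8 and S100a9 passed, as did 3.37% of all tested genes in that direction. Both genes had all 3 IS rats above all 3 IC rats, which held for 19.2% of all tested genes.

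Lcn2 differed by 0.05 between IS and IC (SE 0.29, adjusted p = 0.922) and Mmp8 by -0.04 (SE 0.52, adjusted p = 0.966). Csf3r was 0.75 higher in IS (SE 0.28, adjusted p = 0.181), with IS replicate 3 inside the IC range. With these errors a difference of 1 log2 unit would be less than 2 standard errors for Mmp8 and more than 3 for Lcn2 and Csf3r.

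The call for the calprotectin genes changed with the rats and the method used. Without IS-HA replicate 2, which belongs to neither group but shares the estimate of spread, both genes were called higher in IS than in IC, with adjusted p = 0.0251 for S100a8 and 0.0212 for S100a9 in edgeR, beside 2.19% of all tested genes. With limma's voom and a quality weight per rat both had an adjusted p of 0.0209, beside 2.15% of genes, and with the Wald test of DESeq2 only S100a9 was called (adjusted p = 0.0184), beside 1.63% of genes. On simulated data for this comparison, with genes changed by 2 log2 units, 14.5% of the DESeq2 calls were false, against 5.24% of the edgeR calls. The simulation used the same spread for all genes and no length trend, and counted calls at an adjusted p under 0.05 without the fold cutoff. It therefore does not show how many DESeq2 calls are false in these data. Over all alternatives the adjusted p ran from 0.0209 to 0.536 for S100a8 and from 0.0184 to 0.516 for S100a9, and the log2 difference from 1.54 to 2.51 and from 1.69 to 2.39.

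**Figure D2:**
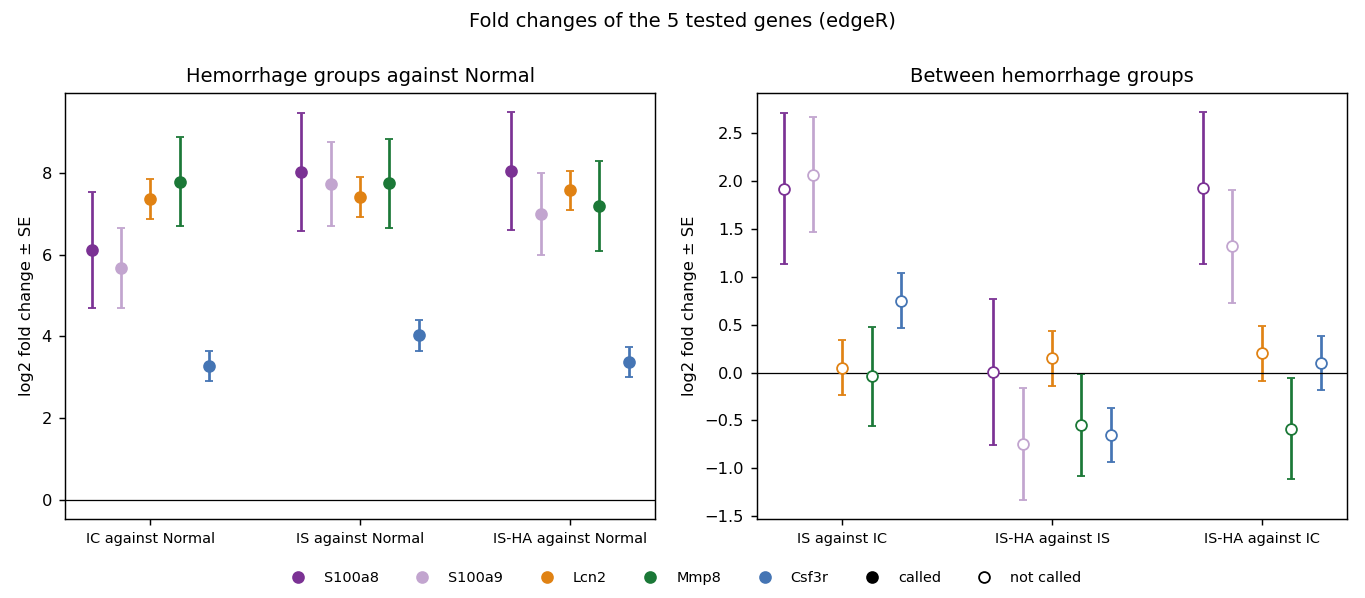
log2 fold changes of the 5 tested members with their standard errors (edgeR), for the hemorrhage groups against Normal on the left and between hemorrhage groups on the right, filled where called and open where not. All 5 are called against Normal and 0 between hemorrhage groups, where S100a8 and S100a9 have the largest differences of the 5 for IS against IC and also the widest error bars.

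A ratio of members within a rat does not depend on the library's scaling. S100a9 over Mmp8 in TPM was 6.36, 7.24 and 5.87 in the IC rats and 43.3, 32.7 and 18.1 in the IS rats. S100a9 over Lcn2 was 0.146, 0.242 and 0.255 in IC and 1.53, 0.630 and 0.907 in IS. Every IS rat thus held more S100a9 relative to either gene than every IC rat. Of the 10 possible pairs of tested members, 6 had all IS rats above all IC rats, namely S100a8 and S100a9 each over Lcn2, Mmp8 and Csf3r, with mean log2 differences of 1.42 to 2.20. Each of the 6 gave p = 0.1 in a two-sided exact permutation test, the smallest p that 3 rats against 3 allow, and an adjusted p of 0.167 over the 10 pairs.

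The other 4 ratios overlapped between IC and IS. S100a8 over S100a9 differed by -0.11 log2 units (exact permutation p = 0.7, adjusted 0.778), and the ratio stayed between 0.878 and 1.30 in IC. Lcn2 over Mmp8 differed by -0.0090 (exact permutation p = 1). The pairs were compared after the members' values had been seen, and pairs that share a gene are not independent.

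**Figure D3:**
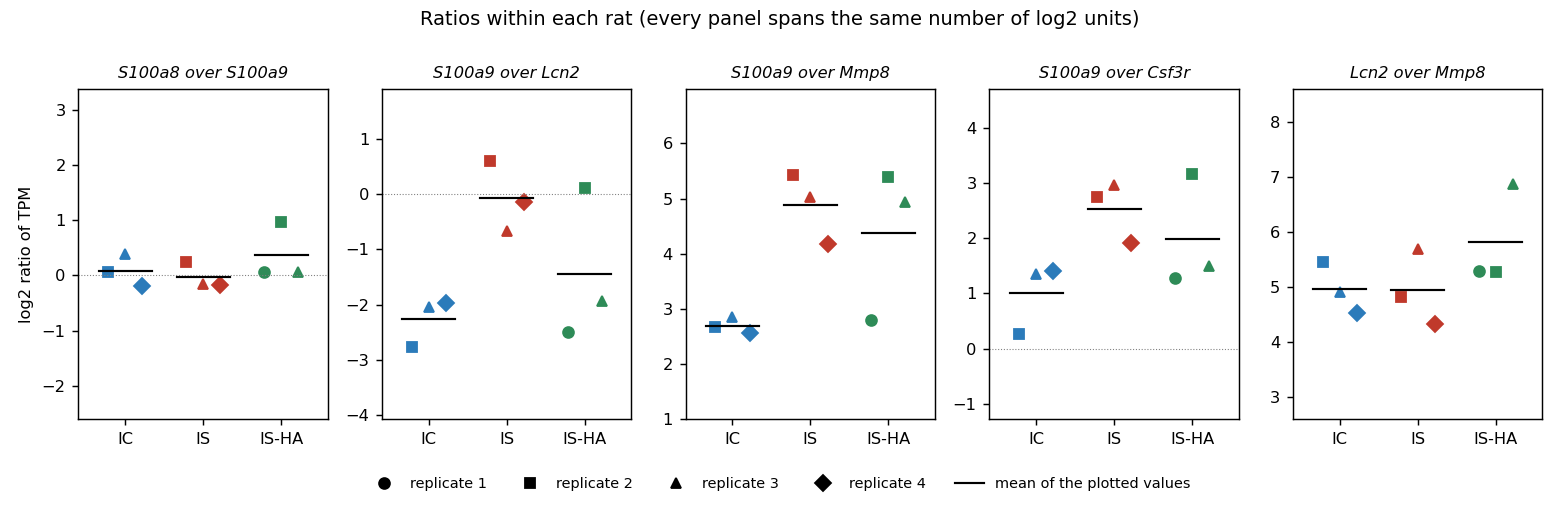
log2 ratio of TPM between members within each rat, by group, with a line at the mean. S100a9 over Lcn2, Mmp8 and Csf3r is higher in all 3 IS rats than in all 3 IC rats, and S100a8 over S100a9 and Lcn2 over Mmp8 overlap between IC and IS.

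Libraries also differed in how gene length related to counts. The log2 CPM values of the tested genes, taken as deviations from each gene's mean over the rats, changed per doubling of gene length by 0.15 and 0.26 in Normal, 0.06, 0.05 and -0.02 in IC, -0.07, -0.13 and -0.16 in IS, and 0.06, -0.26 and 0.05 in IS-HA. All IS rats and IS-HA replicate 2 thus had relatively more counts on short genes than the IC rats. S100a8 and S100a9 are short: S100a8 was 0.145 and S100a9 0.274 times the length of the median gene, shorter than all but 1.46% and 3.64% of the tested genes, against 0.459 times for Lcn2, 0.827 for Mmp8 and 1.26 for Csf3r. The trend therefore moves with the comparison of IS with IC and with every ratio of a calprotectin gene to a longer member. It moves with the comparisons with Normal too. The correction described next raised S100a9 in the Normal rats from -0.76 and -1.16 to -0.32 and -0.52 log2 CPM. Over all alternatives, the length correction among them, the rise over Normal in IS was at least 6.46 for S100a9 and 6.67 for S100a8 on the log2 scale.

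After each library was corrected for its length trend, an analysis added after seeing the data, S100a9 was 1.77 higher in IS than in IC (SE 0.46, adjusted p = 0.118 in edgeR) and S100a8 1.67 higher (SE 0.68, adjusted p = 0.183). The 3 IS rats remained above the 3 IC rats for both genes, at 5.94 to 6.25 against 3.14 to 4.81 log2 CPM for S100a9 and at 4.92 to 5.62 against 2.25 to 4.30 for S100a8. With the correction and without IS-HA replicate 2, the adjusted p was 0.0258 for S100a9 and 0.036 for S100a8, beside 2.04% of all tested genes called higher. The corrected difference of Lcn2 was -0.17 (SE 0.29, adjusted p = 0.733).

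**Figure D4:**
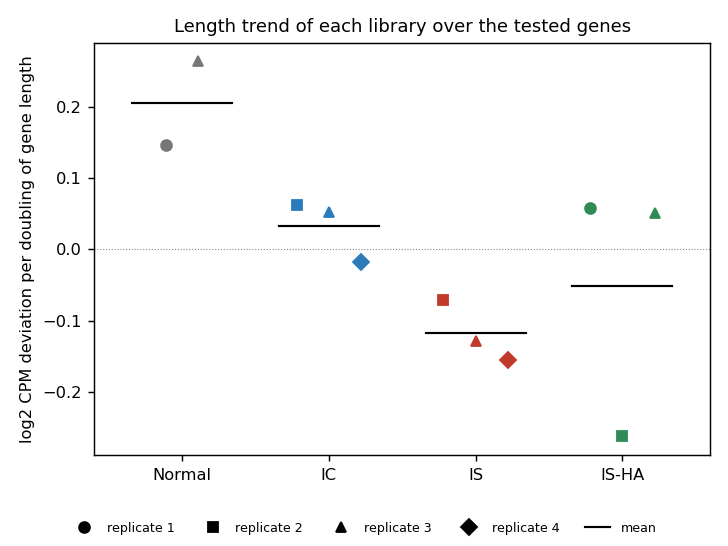
Change in log2 CPM per doubling of gene length in each library, as a deviation from the mean over rats, by group with the mean as a line. The 3 IS rats (-0.16 to -0.07) lie below the 3 IC rats (-0.02 to 0.06), the Normal rats are highest, and IS-HA replicate 2 is lowest at -0.26.

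The third comparison set IS-HA against IS, to ask whether the members were lower after aspiration. With edgeR 0 of 5 members were called, beside 0.00635% of all tested genes called in either direction. At an unadjusted p under 0.05 with the fold cutoff 0 members passed as well, and the share of all genes at that threshold is not given here. The DESeq2 Wald test also called 0 members. S100a9 differed by -0.75 (SE 0.58, adjusted p = 0.68), Csf3r by -0.65 (SE 0.29, adjusted p = 0.553), Mmp8 by -0.55 (SE 0.53, adjusted p = 0.752), Lcn2 by 0.15 (SE 0.29, adjusted p = 0.891) and S100a8 by 0.01 (SE 0.76, adjusted p = 0.998). Every member overlapped between the groups, and so did all 10 ratios between members.

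The IS-HA group was not uniform for calprotectin. In normalized CPM, S100a8 was at 9.97, 104 and 13.6 in the IS-HA rats and S100a9 at 18.0, 101 and 24.5. Replicate 2 was the highest of all 11 rats for both genes, and replicates 1 and 3 lay below the lowest IS rat (35.5 and 74.8). The same rat ranked 5th of 11 for Lcn2 and Mmp8 and 3rd for Csf3r. It was 1st for Aif1, Fcgr3a, Timp1, Tspo and Psmb8 and 9th for Itgam and Tlr4, and its counts differed from those of the other IS-HA rats by a chi-square of 92.9 and 72.3 per degree of freedom, against 12.1 between those rats, so the library as a whole stood apart. It had the fewest counts and the most negative length trend. After the length correction it was at 6.17 log2 CPM for S100a8, the highest of the 11 rats, and at 6.0 for S100a9, within the IS range (5.94 to 6.25) and above the other IS-HA rats (4.30 and 4.67). The RNA integrity of single samples is not given in the sources used here, and its part in these values and in the length trends was not tested.

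Without IS-HA replicate 2, S100a9 was called lower in IS-HA than in IS (log2 difference -1.90, adjusted p = 0.0399 in edgeR), beside 0.541% of all tested genes called lower, and S100a8 differed by -1.83 (adjusted p = 0.0525). With voom and quality weights both were called, S100a8 by -1.70 (adjusted p = 0.0483) and S100a9 by -1.82 (adjusted p = 0.0443), beside 0.603% of genes. With the length correction and without that rat, neither was called (adjusted p = 0.0815 for S100a8 and 0.0579 for S100a9). Over all alternatives the adjusted p ran from 0.0483 to 1 for S100a8 and from 0.0399 to 1 for S100a9. The labels do not mark this rat.

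IS-HA was also set against IC. In edgeR 0 of 5 members and 0% of all tested genes were called. S100a8 was 1.93 higher (SE 0.79, adjusted p = 0.841) and S100a9 1.32 higher (SE 0.59, adjusted p = 0.841), both at an unadjusted p under 0.05 (0.0331 and 0.0481) and past the fold cutoff, beside 1.16% of all tested genes that were higher by both criteria. Without IS-HA replicate 2 the differences were 0.08 and 0.16. With the DESeq2 Wald test and with voom the count was also 0.

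Other genes that neutrophils are known for were counted by list. For each list the counts called higher than Normal stand beside 10.9% of all tested genes in IC, 18.8% in IS and 15.1% in IS-HA. Some listed genes, among them Trem1, Elane, Csf3, Cxcl2, Cxcl3 and Cebpe, had 0 counts in Normal. They passed the filter on low counts only through the rats with hemorrhage, so a higher level than Normal was largely fixed in advance. The list counts against Normal are therefore a description only. Of 9 other genes of specific and gelatinase granules, 6 were tested, and 4 were called higher than Normal in IC, 6 in IS and 5 in IS-HA. Mmp9, which encodes gelatinase B, was at 0.127 and 0.302 TPM in Normal, 6.38, 12.0 and 11.3 TPM in IC, 29.1, 15.7 and 19.5 TPM in IS, and 4.57, 13.6 and 9.04 TPM in IS-HA. All IS rats were above all IC rats for Mmp9, as held for 19.2% of all tested genes. The log2 difference was 1.16 (SE 0.44, adjusted p = 0.181 in edgeR). Ltf, the lactoferrin gene of the same granules, had 0 counts in every rat, and Ngp stayed between 0 and 1.52 TPM. Cyba, a subunit of the phagocyte oxidase that macrophages share, was the most abundant of the list and was at 116, 235 and 213 TPM in IC and 340, 356 and 765 TPM in IS.

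Of 5 azurophil granule genes 2 were tested. Elane, the neutrophil elastase gene, was called higher than Normal in each hemorrhage group, and Prtn3 in none. Prtn3 differed from Normal by -0.47 in IC, 0.11 in IS and -0.38 in IS-HA on the log2 scale (adjusted p = 0.434, 0.834 and 0.498 in edgeR). Elane was listed at 0 in Normal and at 0.534 to 0.873 TPM in IC, 1.23 to 3.42 TPM in IS and 1.01 to 3.23 TPM in IS-HA. Elane rested on few reads, 4 to 16 counts in a rat with hemorrhage. Mpo, the myeloperoxidase gene, reached at most 0.277 TPM in any rat, and Ctsg had 0 counts.

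Among 17 other neutrophil surface genes, 15 were in the table and 12 were tested, of which 9 were called higher than Normal in IC and 10 each in IS and IS-HA. Cxcr2, the receptor for the CXC chemokines that draw neutrophils, was at 0.0264 and 0.0540 TPM in Normal, 0.686, 1.57 and 1.52 TPM in IC, 6.02, 3.58 and 4.36 TPM in IS, and 1.65, 1.84 and 1.32 TPM in IS-HA. The 3 IS rats were above every IC and IS-HA rat, including IS-HA replicate 2. Of all tested genes 19.2% had every IS rat above every IC rat, and 5.42% had every IS-HA rat below every IS rat. Its log2 difference was 1.94 between IS and IC (SE 0.37, adjusted p = 0.143) and -1.54 between IS-HA and IS (adjusted p = 0.48), and neither passed. Cxcr2 is longer than the median gene, 2.00 times its length. For the length-corrected log2 CPM, the IS rats stayed highest, at 3.20 to 3.73 against 0.57 to 1.90 in IC and 1.38 to 2.65 in IS-HA.

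Trem1, an amplifying receptor of neutrophils and monocytes, was listed at 0 in Normal, at 5.71, 22.2 and 11.9 TPM in IC, at 26.3, 23.9 and 64.2 TPM in IS and at 9.69, 20.9 and 12.4 TPM in IS-HA. On the TPM scale its IS rats were also above the IC and IS-HA rats, but by little at the edges, and in normalized CPM the ranges of IS and IS-HA overlapped. Cd177, a surface marker of neutrophils, was highest in the Normal rats, at 0.380 and 0.389 TPM. Fcgr3a, Itgb2 and Itgam, which microglia also express, led the list in abundance.

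**Figure D5:**
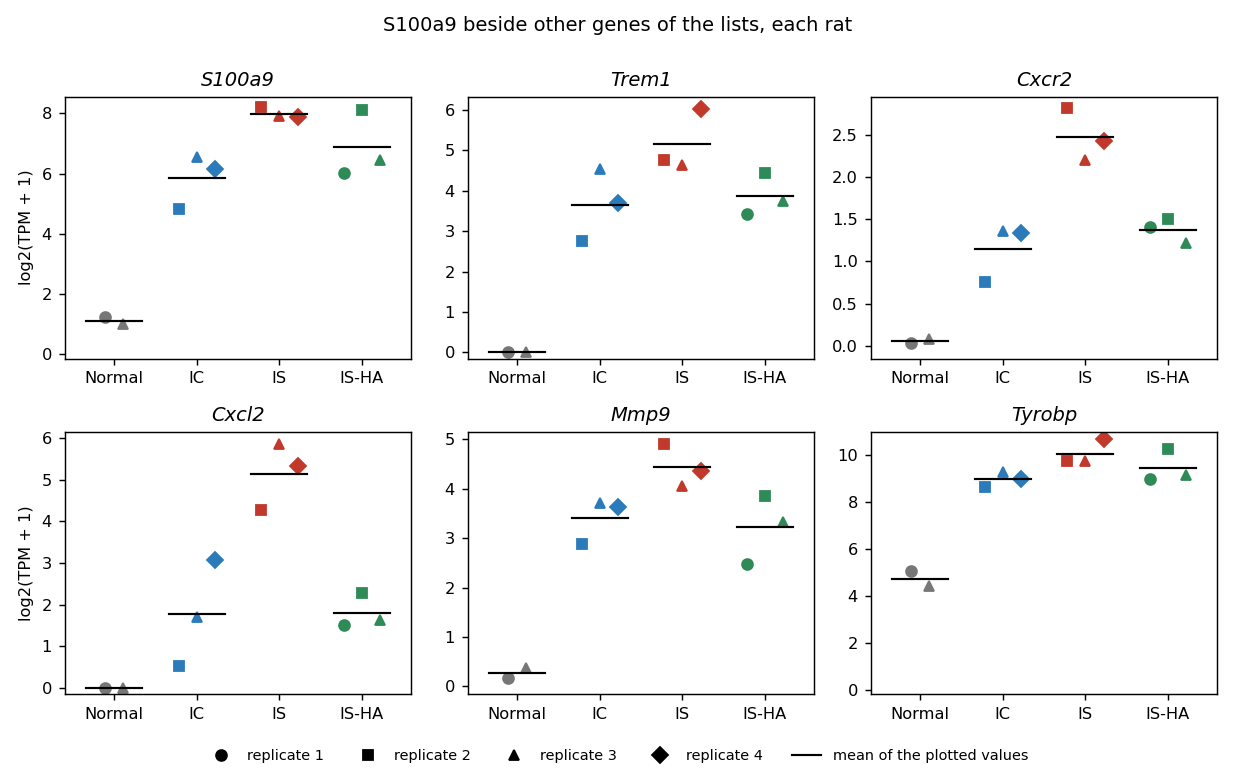
S100a9 and 5 other genes of the lists as log2(TPM + 1) in each rat, with a line at the mean of the plotted values and a separate vertical scale in each panel. Cxcr2 and Cxcl2 in IS-HA replicate 2 (square) lie below all IS rats, while S100a9 and Tyrobp in that rat lie at the level of the IS rats.

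Genes for the signals that act on these receptors formed another list. Of 9 recruiting ligands and growth factors, 6 were tested, of which 4 were called higher than Normal in IC and 6 each in IS and IS-HA. All 6 had every IS rat above every IC rat, as held for 19.2% of all tested genes. Their median log2 difference was 2.47 beside -0.0010 over all tested genes, and 0 were called. Csf3, which encodes the ligand of the Csf3r receptor and was chosen for that tie after its values were seen, was listed at 0 in Normal, at 0.350, 0.367 and 0.600 TPM in IC, at 2.31, 2.20 and 4.02 TPM in IS and at 0.464, 1.11 and 0.682 TPM in IS-HA. Cxcl2, a ligand of CXCR2, was at 0.430, 2.26 and 7.37 TPM in IC, 18.2, 56.9 and 39.3 TPM in IS and 1.86, 3.82 and 2.10 TPM in IS-HA. For both ligands the IS rats lay above all IC and all IS-HA rats. These were the only 2 of the 6 tested genes of the list with every IS-HA rat below every IS rat, as held for 5.42% of all tested genes. Cxcl1, Cxcl3 and Il1b overlapped between IS-HA and IS, with log2 differences of -0.67, -2.86 and -1.34 (adjusted p = 0.664, 0.54 and 0.55 in edgeR). The log2 differences between IS-HA and IS were -1.99 for Csf3 and -3.95 for Cxcl2 (adjusted p = 0.499 and 0.415 in edgeR). Csf3 rested on few reads, 3 to 19 counts in a rat with hemorrhage.

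Of 6 transcription factors of granulocytes 4 were tested, and the 4 were called higher than Normal in each hemorrhage group. Cebpe, the factor of the granule gene program, was listed at 0 in Normal and lay at 0.887 to 2.56 TPM in IC, 0.994 to 3.04 TPM in IS and 1.08 to 4.51 TPM in IS-HA. Of 4 endothelial adhesion genes 2 were called higher in IC, 3 in IS and 2 in IS-HA. Selp, which encodes P-selectin, reached 2.15 to 4.56 TPM in IC, 3.83 to 6.0 TPM in IS and 1.46 to 2.71 TPM in IS-HA, from 0 and 0.157 TPM in Normal.

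Proteins that bind the members were taken as a list of 8 genes, all tested, of which 3 were called higher in each hemorrhage group and 1 was called lower in IS. The gene called lower was Lrp2, a receptor that takes up lipocalin-2, at 0.251 and 0.329 TPM in Normal and 0.0897 to 0.131 TPM in IS (log2 difference -1.46, adjusted p = 0.0433 in edgeR). Those called higher were Timp1, an inhibitor of MMP8 and other matrix proteases, Anxa1, a ligand of formyl peptide receptors, and Tlr4, a receptor for calprotectin. Timp1 rose from 2.68 and 3.96 TPM in Normal to 166, 331 and 175 TPM in IC and 368, 326 and 423 TPM in IS. Ager, which encodes the receptor RAGE, was at 8.54 to 19.4 TPM over all rats and was not called. Slc22a17, a receptor for lipocalin-2, was at 715 and 733 TPM in Normal and 261 to 432 TPM in IS, a log2 difference of -0.97 (adjusted p = 0.0059) just short of the fold cutoff. No gene of these lists was called between hemorrhage groups in edgeR.

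Markers of other cells also differed between the groups. The shares of all tested genes called higher were given with the lists above, and the share called lower is not given here. Of the 8 listed genes of microglia and macrophages 7 were called higher than Normal in IC, 6 in IS and 7 in IS-HA, and they summed to 176 to 222 TPM in Normal, 1210 to 1682 TPM in IC, 1769 to 3029 TPM in IS and 1434 to 2204 TPM in IS-HA. The 5 listed monocyte genes were called higher in each hemorrhage group and summed to 21.4 to 21.6 TPM in Normal, 76.3 to 164 TPM in IC, 123 to 237 TPM in IS and 99.6 to 121 TPM in IS-HA. Of 6 astrocyte genes 2 were called higher in each hemorrhage group, Gfap and Serpina3n, and the median log2 difference of the list was 0.56 in IC, -0.24 in IS and 0.16 in IS-HA. Platelet Pf4 was called higher in each hemorrhage group, 1 of 2 tested in its list, as was Cd8a, 1 of 3 tested genes of T and NK cells. Hbb, a hemoglobin gene of erythroid cells, differed from Normal by 0.61 in IC, -0.69 in IS and -1.21 in IS-HA on the log2 scale (adjusted p = 0.489, 0.334 and 0.126 in edgeR). Neuron genes were called lower, 1 of 6 in IC, 6 in IS and 4 in IS-HA, and they summed to 4203 to 4658 TPM in Normal, 1621 to 2930 TPM in IC, 772 to 1974 TPM in IS and 1078 to 2271 TPM in IS-HA. Of 4 oligodendrocyte genes 3 were called lower in IS and 0 in IC and IS-HA, and they summed to 14977 to 15279 TPM in Normal, 8487 to 12300 TPM in IC, 4866 to 8540 TPM in IS and 7482 to 11988 TPM in IS-HA. The part of these cells, and of the lower share of neuron and oligodendrocyte RNA, in the levels of the members was not tested.

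Likeness of profile was measured as the root mean square difference of centred log2 CPM, with smaller values for more similar genes. Over all 11 rats S100a8 and S100a9 were 0.338 log2 units apart and the other member pairs 0.903 to 1.53. Over the 9 rats with hemorrhage the values were 0.341 for that pair and 0.583 to 1.33 for the other pairs. Calprotectin's genes were thus the nearest pair in both sets, by distances that include the differences between the groups. Over the 9 rats Lcn2, Mmp8 and Csf3r were nearer to each other than to either of them. Over the 11 rats that did not hold, as Lcn2 was 1.53 from Csf3r and 1.14 from S100a9.

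The genes nearest to the mean profile of the 5 tested members over 11 rats were Clec12a (0.184), C3h15orf48 (0.248), Lrrc25 (0.262), Capg (0.268) and Tspo (0.274). Clec12a encodes an inhibitory lectin receptor of myeloid cells. Over the 9 rats with hemorrhage the nearest were Tmem88 (0.118), Krt8 (0.150), Glipr2 (0.155), Clec12a (0.159) and Psmb8 (0.176). The members themselves lay farther from that mean over the 9 rats, from 0.390 for Csf3r (rank 976 of the tested genes) to 0.752 for S100a8 (rank 8413). Over the 11 rats they lay at 0.572 (S100a9, rank 74) to 0.908 (Csf3r, rank 299). These genes are thus near an average of unlike profiles and not near any single member. The gene nearest to the mean of S100a8 and S100a9, looked up after their values were seen, was Calca in both sets (0.374 and 0.395). Calca, which encodes calcitonin and its related peptide, was at 0.199 and 0.102 TPM in Normal, 5.64, 20.3 and 10.1 TPM in IC, 50.4, 30.7 and 43.6 TPM in IS, and 22.7, 70.3 and 24.4 TPM in IS-HA. These distances share the libraries, their depth and their length trends and are a description only.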

How the data were processed

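Bulk mRNA-seq was analysed from 11 rat striata. Per the labels, poly(A)+ TruSeq Stranded libraries were sequenced as 150-base paired ends. The submitters' processing notes name fastp 0.20.0, FastQC 0.11.9, HISAT2 2.1.0, SAMtools 1.9, featureCounts of Subread, DESeq2 and the mRatBN7.2 build. The annotation version and the strand setting of the counting are not given in the sources used here. The authors deposited raw counts and TPM for 30560 genes in each rat. Counts were tested as deposited, and TPM was used for levels and for ratios.

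Genes were kept with filterByExpr (15742), scaled by TMM and fitted over the 4 groups with edgeR 4.0.16 (quasi-likelihood F test) in R 4.3.3. P-values were adjusted by Benjamini-Hochberg over all tested genes, and a gene was called at an adjusted p under 0.05 and a log2 difference of at least 1. The SE is the log2 difference divided by the square root of F. Alternatives were DESeq2 1.42.0, voom with quality weights and limma 3.58.1 on log2(TPM + 1) and log2(TPM + 0.1), other scalings and filters, leaving out each rat, and a block for the replicate number. A correction for gene length was added after seeing the data, with a loess curve of each library's log2 CPM on log2 length (taken from the ratio of counts to TPM) as an offset. Scripts were tested on simulated data over 15742 genes for IS against IC, drawn with the same spread for all genes and no length trend. There edgeR recovered 99.5% of genes changed by 2 log2 units and 21.5% of those changed by 1. Recovery in the rats themselves, where genes differ in spread, was not measured. Exact permutation tests used scipy 1.17.1 and figures matplotlib 3.10.9.

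A count of 3 corresponds to 0.159 to 0.448 CPM in the deepest and the shallowest library. The members and lists were chosen with earlier results of these data known. Named are the 7 members, up to 4 genes of a list by mean TPM, the neutrophil markers Cxcr2, Trem1, Cd177, Ngp and Ltf, markers of other cells, any called between hemorrhage groups, and the 5 genes nearest in profile. Csf3, Ager, Tlr4, Lrp2, Ctsg and Calca were chosen after their values were seen. Of 121 listed symbols, 7 were not matched, and a listed surface gene is not reported here. Each rat is a separate animal and replicate. Same-numbered rats did not deviate together. Mean correlations of their deviations ranged from -0.28 (IS-HA with IS) to 0.03 (IS with IC).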

Additional observations from a re-analysis of the deposited data

How the results depend on the processing

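The 30 log2 differences of members were recomputed under 25 alternatives each. Of these 750 values, 708 kept their direction and their side of the threshold. Against Normal, the number of members called (5) ranged from 3 to 5 in IC when 1 rat was left out, and was 5 throughout in IS and IS-HA. For IS against IC it was 0 in edgeR, 1 with the DESeq2 Wald test, 2 with voom and 2 with the length correction without IS-HA replicate 2, and it ranged from 0 to 2 when 1 rat was left out. For IS-HA against IS it was 2 with voom and ranged from 0 to 1 when 1 rat was left out. For IS-HA against IC it was 0 under every alternative run.

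The differences that changed direction were at most 0.20 in size as reported, but S100a8 in IS-HA against IS became large and negative under some alternatives. For Lcn2, IS against IC became -0.027 and -0.028 on log2(TPM + 1) and log2(TPM + 0.1), -0.17 with the length correction, -0.18 with that and the block, -0.16 with that and without IS-HA replicate 2, and -0.19 and -0.24 without IC replicate 2 and IS replicate 3, within a range of -0.24 to 0.29 when 1 rat was left out. For Mmp8 it became 0.16, 0.21, 0.17 and 0.10 without IC replicates 3 and 4 and IS replicates 2 and 3, within -0.45 to 0.21. For S100a8, IS-HA against IS became -0.0090 with the size factors of DESeq2, -0.068 with library size alone, -1.70 with voom, -0.73 and -0.74 on log2(TPM + 1) and log2(TPM + 0.1), -0.0061 without a filter, -0.13, -0.08 and -1.83 without IS replicates 3 and 4 and IS-HA replicate 2, -0.20 with the length correction, -0.021 with that and the block, and -1.60 with that and without IS-HA replicate 2. Leaving out 1 rat gave S100a8 a range of -1.83 to 0.49. Lcn2 ranged from -0.086 (without IS replicate 2) to 0.41 for IS-HA against IS and from -0.036 (without IC replicate 2) to 0.44 for IS-HA against IC. Csf3r, IS-HA against IC, reached -0.059 and -0.079 without IC replicate 2 and IS-HA replicate 2, within a range up to 0.27, and -0.12 with the length correction without the latter. The causes were not tested.

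With the replicate number as a block, 4 of 5 members were called in IC against Normal, where S100a8 differed by 5.34 (adjusted p = 0.0788 in edgeR) and by 5.13 with the length correction as well (adjusted p = 0.0617). The block changed no other call. The rats are different animals, and their numbers did not pair them, so the block result is no measure of a weaker effect. Library size alone moved the median log2 difference of all genes from 0.0033 to 0.14 in IC against Normal. Few counts in Normal limit the fold changes of Mmp8 and S100a8.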
